A study of Mus musculus with 12 samples.

Results

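Of 12 RNA-seq libraries from mouse pancreas with acute pancreatitis, 4 held few transcripts of neutrophils, and they are described here against the other 8. The 4 were WT 3, WT 6, AMKO 3 and AMKO 6. They were chosen by their low levels of S100a8, S100a9, Csf3r and Cxcr2, so these genes are not evidence for anything that follows, and neither is any p-value for the split, since every gene of a library was measured in the same libraries that were sorted. For that reason the split itself is described without a test. The 4 are called neutrophil-low and the 8 neutrophil-high below. Values of the neutrophil-low libraries are listed in the order WT 3, WT 6, AMKO 3, AMKO 6, and those of the neutrophil-high libraries as their lowest to highest value with the median.

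The mice were C57BL/6J wild type (WT, 6 libraries) or Axl-/-Mertk-/- (AMKO, 6 libraries), all at postnatal day 56. AXL and MERTK are receptor tyrosine kinases with which phagocytes recognise dying cells, and AMKO mice lack both in every cell type. For AMKO, a strain background was not given in the sources used here. Every mouse, WT and AMKO alike, had received caerulein, a cholecystokinin analogue that overstimulates acinar cells, in 10 intraperitoneal injections of 100 µg/kg spaced 1 h apart, and was killed 12 h after the first. No untreated pancreas was analysed here. Each genotype gave 2 neutrophil-low and 4 neutrophil-high libraries, so genotype and split were balanced. No label ties a sample to a mouse, and p-values then measure the spread between these samples. Both neutrophil-low pairs carry the numbers 3 and 6. The labels do not say what a number stands for, so the split and the number cannot be told apart.

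In caerulein pancreatitis, acinar cells that activate their digestive enzymes too early are injured and release signals that call neutrophils and then monocytes out of the blood. Neutrophils follow the chemokines CXCL1, CXCL2 and CXCL5 through their receptor CXCR2, slow down on selectins and integrin ligands of the vessel wall, and enter the tissue. There they release granule proteases and make superoxide with the phagocyte NADPH oxidase. Monocytes follow CCL2 and related chemokines and become macrophages. PU.1, encoded by Spi1, is the transcription factor on which the genes of both cell types depend.

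Library totals ran from 10668637 to 15184371 counts. Acinar digestive enzymes took 34.9, 29.9, 34.1 and 38.8% of the counts of the neutrophil-low libraries and 27.2 to 33.7% of the others, and mitochondrially encoded genes took 1.25 to 1.42% and 1.16 to 1.95%. Xist and Ddx3y counts showed a male pattern in WT 3 and WT 6 and a female pattern in AMKO 3 and AMKO 6, so genotype and sex cannot be told apart within the neutrophil-low libraries. In the neutrophil-high libraries both sexes were present in both genotypes, but WT 1 alone was male among the WT ones and AMKO 1 alone female among the AMKO ones. Alb, the plasma albumin gene of the liver, had 2, 7 and 7 counts in WT 1, WT 2 and WT 3, only the last of them neutrophil-low, and 141 to 309 in each other library. Axl, the targeted gene, stood at 44.4, 46.5, 10.5 and 8.34 CPM in the neutrophil-low libraries, at 57.7 to 76.9 in the neutrophil-high WT libraries and at 5.6 to 11.5 in the neutrophil-high AMKO libraries, so that every library matched its genotype. Mertk was counted at 2.69, 4.72, 5.52 and 6.06 against 4.37 to 10.5 (median 8.63) CPM. Counts over the whole gene do not check its disruption. CPM are counts scaled to a common library depth, without correction for gene length, so they compare libraries and not genes.

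S100a8 and S100a9 encode the calprotectin subunits that fill the neutrophil cytoplasm, Csf3r the receptor for G-CSF and Cxcr2 the receptor for neutrophil-attracting chemokines. S100a8 was at 9.87, 8.17, 7.9 and 6.82 CPM in the neutrophil-low libraries and at 21.7 to 107 (median 49.2) in the neutrophil-high ones. S100a9 was at 27.9, 21.7, 15.5 and 13.6 against 40.0 to 196 (median 86.7) CPM. The lowest of the 8 was AMKO 4 and the highest WT 1 in both. Csf3r, whose counts are uncertain because a transcript of another gene model is nearly identical, stood at 14.4, 19.7, 14.3 and 11.9 against 45.7 to 184 (median 83.4) CPM, and Cxcr2 at 6.36, 8.43, 6.29 and 6.28 against 20.02 to 77.4 (median 38.1) CPM. Summed over the 4 genes, WT 3 with 58.5 CPM was the neutrophil-low library nearest to the others, and AMKO 4 with 148 CPM was the neutrophil-high library nearest to them.

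A gene was counted as following the split where all 4 neutrophil-low libraries lay on one side of all 8 others and the fitted difference, with genotype as a term, was at least 2-fold. Of 14212 genes tested, 307 followed the split downwards (2.16%) and 3 upwards (0.0211%). The 3, named after their values were seen, were Dio1, Kcnh6 and Lrrc16b, all weakly expressed. Dio1, a deiodinase that activates thyroid hormone, for example, was at 1.06, 1.33, 1.02 and 1.08 CPM in the neutrophil-low libraries and 0.213 to 0.823 (median 0.494) in the others. With no condition on the fold, 414 genes lay lower in all 4 than in any of the 8 (2.91%) and 50 higher (0.352%), and with no condition on overlap 781 were fitted at least 2-fold lower (5.5%) and 61 higher (0.429%). These shares, with 50.2% of all tested genes fitted below 0, are the background for the counts of each gene list below. At 2.16%, a list of 23 genes or fewer most likely holds none, so a count of 0 does not set such a list apart. The 307 include the 4 genes used for the sorting. All differences are given on the log2 scale as neutrophil-low minus neutrophil-high, so a negative value means a lower level in the 4. The median over all tested genes was -0.000951, and over the 307 it was -1.56. Among the 307, the lowest of the 12 libraries was WT 3 for 159 genes, AMKO 6 for 70, AMKO 3 for 48 and WT 6 for 30. AMKO 4 was the lowest of the 8 for 179, and WT 1, AMKO 1 or AMKO 5 was the highest library for 96, 103 and 90. The 8 therefore do not form an even group, with AMKO 4 nearest to the neutrophil-low libraries. Without it, 414 genes followed downwards.

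**Figure D1:**
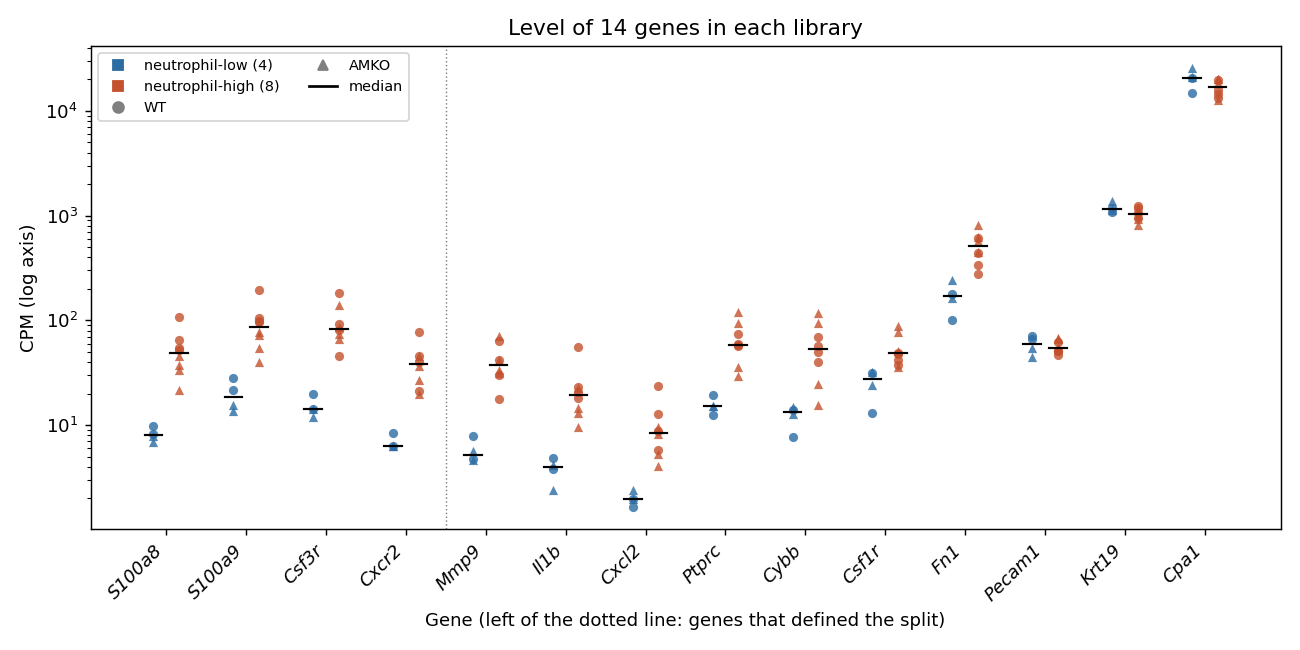
CPM on a log axis of 14 genes in each library, with 1 point per library (circles WT, triangles AMKO), the 4 neutrophil-low libraries in blue, the 8 neutrophil-high libraries in red and a bar at each group's median; the 4 genes left of the dotted line defined the split. Mmp9, Il1b, Cxcl2, Ptprc, Cybb, Csf1r and Fn1 lie lower in all 4 neutrophil-low libraries, and the points of Pecam1, Krt19 and Cpa1 overlap.

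The promoters of 4 genes are shown because PU.1 and NF-kB are the factors best known for phagocyte genes and for inflammatory chemokines. S100a8 is a phagocyte gene by which the libraries were sorted, Il18rap one that followed the split, Cxcl2 is a chemokine that followed it, and Cxcl1 is its neighbour that did not. Each line gives 250 bases before to 50 after the start of the RefSeq transcript, 5′ to 3′ on the plus strand of GRCm38.p6, at chr3:90668821-90669120, chr1:40515112-40515411, chr5:90903649-90903948 and chr5:90890995-90891294. Capitals mark GAGGAAGT or its reverse complement ACTTCCTC, the core bound by PU.1, in the first pair, and in the second a kB site of NF-kB, written GGG, any 2 bases and TTTCC, or its reverse complement.
S100a8: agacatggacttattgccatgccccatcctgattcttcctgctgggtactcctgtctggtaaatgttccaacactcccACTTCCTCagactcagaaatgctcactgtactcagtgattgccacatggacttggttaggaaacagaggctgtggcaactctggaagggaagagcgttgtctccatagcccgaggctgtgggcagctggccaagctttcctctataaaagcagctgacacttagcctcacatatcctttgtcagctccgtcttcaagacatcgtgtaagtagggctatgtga
Il18rap: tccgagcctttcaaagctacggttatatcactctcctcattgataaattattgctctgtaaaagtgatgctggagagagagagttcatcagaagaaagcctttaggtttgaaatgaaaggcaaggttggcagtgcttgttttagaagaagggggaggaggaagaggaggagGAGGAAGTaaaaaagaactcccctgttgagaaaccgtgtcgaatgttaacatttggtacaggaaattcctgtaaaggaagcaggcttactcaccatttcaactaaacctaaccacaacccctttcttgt
Cxcl2: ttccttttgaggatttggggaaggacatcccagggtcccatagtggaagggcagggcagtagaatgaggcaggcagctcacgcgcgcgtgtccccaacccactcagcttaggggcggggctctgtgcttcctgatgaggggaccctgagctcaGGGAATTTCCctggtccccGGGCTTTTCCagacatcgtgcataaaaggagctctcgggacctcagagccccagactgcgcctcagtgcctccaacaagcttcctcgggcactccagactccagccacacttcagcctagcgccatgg
Cxcl1: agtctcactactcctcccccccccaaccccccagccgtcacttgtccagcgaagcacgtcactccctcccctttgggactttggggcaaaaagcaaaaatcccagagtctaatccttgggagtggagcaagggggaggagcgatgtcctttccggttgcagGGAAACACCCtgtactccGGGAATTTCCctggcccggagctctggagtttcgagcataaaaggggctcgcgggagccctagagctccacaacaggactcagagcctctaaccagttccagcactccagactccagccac
Counted in bases from the start, the PU.1 letters begin at -172 in S100a8 and at -79 in Il18rap. Both chemokine promoters hold a pair of kB matches, at -97 and -78 in Cxcl2 and at -89 and -71 in Cxcl1.

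Promoters of the same length were searched on both strands for these letters and for TTGCNNAA, letters at the core of C/EBP sites, which are known from granule genes. RefSeq held a promoter for 231 of the 307 genes that followed the split downwards. A gene was counted where any of its promoters matched. The PU.1 letters were present in 37 of the 231 (16%), S100a8 among them, in 380 of 10508 tested genes that did not follow it (3.62%) and in 3.69% of all 27025 genes with a promoter. The C/EBP letters were in 31 of the 231 (13.4%), S100a9 among them, in 1093 of the 10508 (10.4%) and in 12.2% of the 27025. The kB letters were in 9 (3.9%), 217 (2.07%) and 1.89%. The 3 searches were counted apart, and a promoter could hold more than 1 of the motifs. A match is a run of letters and not a measured binding site, and these shares were not tested.

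Neutrophil genes other than those used for the sorting followed the split in most cases. Of 32 listed markers and granule genes, 22 had enough counts to be tested and 16 followed it downwards, with a median difference of -2.15. Their summed level was 108 to 152 CPM in the neutrophil-low libraries and 239.6 to 765 in the others (median 530.0). All 22 were fitted below 0, against 50.2% of all tested genes, of which 2.16% followed downwards. Bulk RNA cannot tell fewer cells of a type apart from less RNA of that type per cell.

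Mmp9, the gelatinase of neutrophil granules, was at 4.73, 7.84, 5.61 and 4.65 CPM in the neutrophil-low libraries and at 17.7 to 70.7 (median 37.9) in the neutrophil-high ones, a difference of -2.83. Clec4e, a receptor for microbial glycolipids and dead cells, was at 2.94, 3.98, 7.48 and 5.63 against 10.1 to 46.7 (median 25) CPM (-2.46). In both genes the groups lay apart, and the highest library was AMKO 5 for Mmp9 and WT 1 for Clec4e. Fpr1, the receptor for formylated bacterial and mitochondrial peptides, was at 1.79, 1.53, 2.8 and 1.52 against 4.01 to 20.002 (median 8) CPM (-2.44). Acod1, which makes itaconate in activated phagocytes, had a larger difference, at 0.652, 1.46, 0.595 and 0.866 against 1.53 to 34.3 (median 11.01) CPM (-3.79), although its lowest neutrophil-high value, in AMKO 4, was close to the WT 6 value. Wfdc21, an antimicrobial protease inhibitor, was at 0.408, 0.133, 0.17 and 0.108 CPM in the neutrophil-low libraries, which is a few counts, and at 0.716 to 4.44 (median 1.46) in the others.

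The neutrophil members that did not follow the split were of several kinds. Slfn4, an interferon-inducible gene of myeloid cells, was as different in its fit (-2.33) as many that followed, but WT 3 with 70.2 CPM lay above AMKO 4 with 66.1 CPM. Without either library it followed. Its counts may include reads from the near-identical Slfn3. Retnlg, a resistin-like protein of neutrophils, overlapped in AMKO 6 alone, and followed without it (4.16, 2.66, 4.93 and 9.63 against 6.87 to 22.5, median 9.93 CPM, -1.28). Lrg1, which acute-phase liver and vessel cells also make, was at 23.6, 34.3, 29.4 and 25.5 against 29.1 to 64.1 (median 40.7) CPM (-0.59).

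Genes outside the neutrophil list were among those with the largest differences. Cd33, an inhibitory sialic acid receptor of myeloid cells, was at 1.55, 2.06, 1.95 and 2.27 against 6.11 to 27.5 (median 10.5) CPM (-2.63). Siglece, a receptor of the same family found on neutrophils and macrophages, was at 1.06, 1.2, 1.7 and 0.108 against 2.69 to 14.3 (median 4.86) CPM (-2.61), with counts uncertain because it overlaps other genes. Slc2a6, a lysosomal sugar transporter of activated phagocytes, was at 0.489, 0.531, 0.85 and 0.649 against 2.54 to 6.82 (median 4.04) CPM (-2.83). All 4 neutrophil-low values of each lay well under the lowest of the other 8. Fam65b was nearly level among the 4 at 3.18, 3.25, 3.23 and 2.71 CPM and ranged from 8.4 to 31.9 (median 15.4) in the others (-2.47). Of the 307 genes, 79 belonged to one of 44 gene lists and 228 to none.

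**Figure D2:**
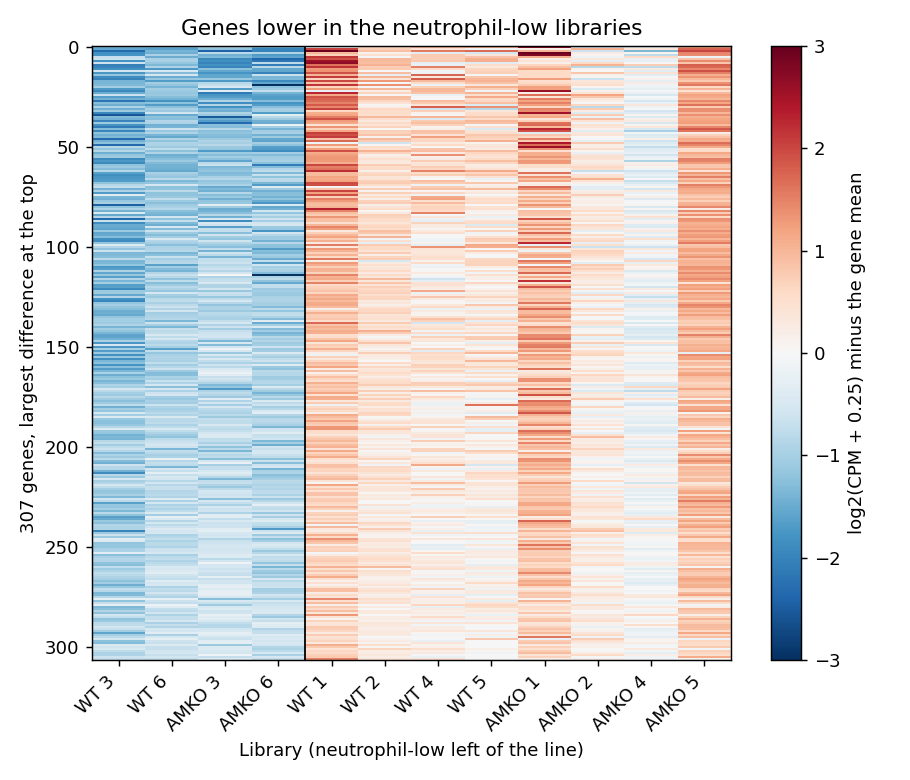
Heat map of the 307 genes that followed the split downwards (rows, largest difference at the top) in the 12 libraries (columns, neutrophil-low left of the line); the colour is log2 CPM with a pseudocount of 0.25 minus the gene's mean over the libraries. The 4 neutrophil-low columns are blue throughout because the genes were chosen so, and of the 8 others WT 1, AMKO 1 and AMKO 5 are the darkest red and AMKO 4 the palest.

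Macrophage and monocyte genes were divided. Of 30 listed, all were tested and all were fitted below 0, 13 separated the groups and 12 followed the split with at least a 2-fold difference. Of all tested genes, these shares were 50.2%, 2.91% and 2.16%. The median difference was -1.08. Summed over the list, the neutrophil-low libraries held 661 to 1023 CPM and the others 1338 to 2967 (median 1737), so the groups did not overlap.

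Lyz2, the lysozyme of phagocytes, was at 79.8, 142, 206 and 158 CPM in the neutrophil-low libraries and 254 to 753 (median 373) in the neutrophil-high ones (-1.55), lowest in WT 3 and highest in AMKO 5. Its counts are uncertain because Lyz1 is 95.8% identical over 1264 bases. Chil3, a chitinase-like protein of activated macrophages and neutrophils, was at 38.4, 42.2, 72 and 61.4 against 93.1 to 203 (median 135) CPM (-1.41). Clec7a, the β-glucan receptor dectin-1, was at 1.63, 3.79, 2.12 and 2.49 against 8.74 to 17.9 (median 12.2) CPM (-2.32). The highest library was AMKO 5 in the first of these and WT 1 in the second. Itgam, the αM integrin of neutrophils and monocytes, was at 48.6, 64.8, 67.5 and 65.6 against 93.5 to 268 (median 150.1) CPM (-1.43), and its counts may be shared with a gene model of nearly identical sequence. Csf1r, the receptor for the macrophage growth factor, followed with a smaller gap (13, 31.3, 32.4 and 24.2 against 36.1 to 88.6, median 48.7 CPM, -1.07). The scavenger receptor Msr1 (25.6, 31.9, 30.2 and 27.8 against 43 to 94.4, median 78.6 CPM) and F13a1, a transglutaminase of monocytes and resident macrophages (36.4, 52.9, 74.9 and 61.9 against 75.4 to 213, median 121 CPM), followed too, by -1.33 and -1.14. With 1 library left out, F13a1 no longer followed without WT 1, WT 2, WT 6, AMKO 1, AMKO 5 or AMKO 6, and Csf1r without WT 3, AMKO 1, AMKO 5 or AMKO 6.

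Other macrophage genes did not follow. Adgre1, which encodes F4/80, had a difference of -1.48, but WT 6 with 21.6 CPM lay just above AMKO 4 with 21.3 CPM, and AMKO 5 reached 113 CPM. Without AMKO 4 or WT 6 it followed. Cd68, a lysosomal protein of macrophages, separated the groups (21.3, 31.5, 34.7 and 22.1 against 35.6 to 63.3, median 46.3 CPM) at less than 2-fold (-0.80). C1qb, a complement component of tissue macrophages, overlapped between them (19, 34.3, 34.7 and 28.5 against 32.4 to 97.3, median 44.9 CPM, -0.85). Cd14, the co-receptor for endotoxin, was at 114, 83.7, 85.1 and 98.2 against 86.6 to 139 (median 107) CPM (-0.22), with WT 3 above the median of the 8. Mrc1, the mannose receptor of resident macrophages, was at 29.2, 46.4, 77 and 81.3 against 39.8 to 117 (median 68) CPM (-0.36), where AMKO 3 and AMKO 6 lay above the median of the 8.

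**Figure D3:**
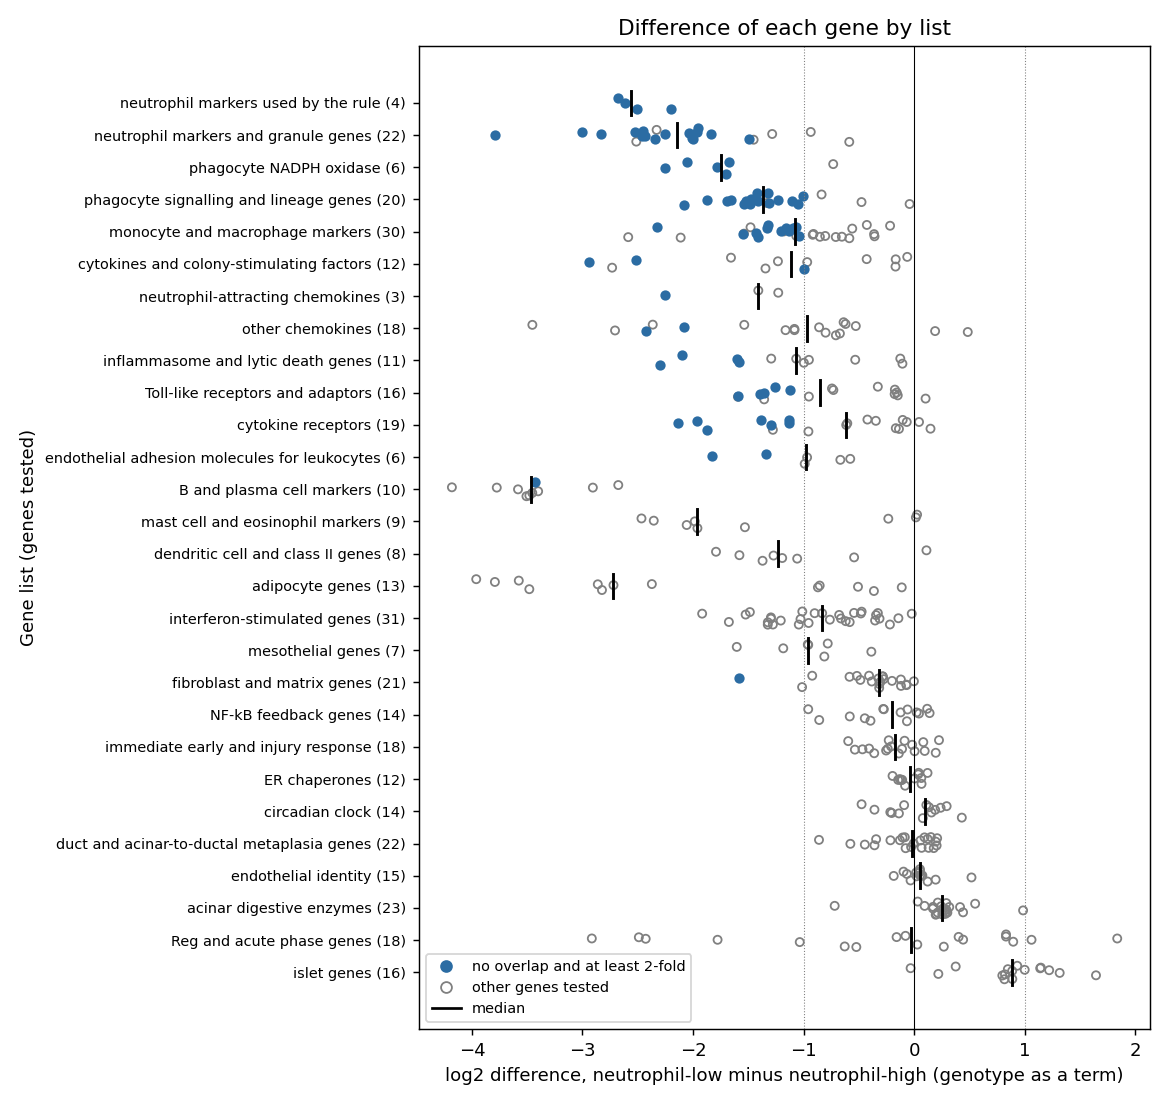
Log2 difference between neutrophil-low and neutrophil-high libraries (x axis) of each tested member of 28 gene lists (rows, number tested in brackets), with filled points for members that followed the split and a bar at each list's median; dotted lines mark 2-fold. Most points of the neutrophil, NADPH oxidase and phagocyte signalling lists are filled, whereas those of the B cell, adipocyte and interferon lists lie left of 0 with 1 filled. The mast cell list has 7 of 9 points left of 0 and none filled. Points of the duct and clock lists lie around 0, and those of the acinar list lie near 0 with all but 1 to its right, none of them filled.

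Most genes of the shared phagocyte machinery followed the split. In the list of phagocyte signalling and lineage genes, 16 of 20 tested members followed downwards, against 2.16% of all tested genes. The list had a median of -1.37 and a summed level of 312 to 430 CPM against 578 to 1139 (median 745). Ptprc, the pan-leukocyte phosphatase CD45, was at 12.4, 19.5, 15.1 and 15.3 against 29.4 to 121 (median 58.7) CPM (-2.08). Spi1 itself was at 6.85, 8.43, 10.2 and 7.69 against 17.6 to 31.2 (median 22.3) CPM (-1.52). Syk, the kinase downstream of Fc receptors and dectin-1, was at 10.4, 12, 13 and 11.9 against 19.5 to 71.9 (median 28.6) CPM (-1.66). No neutrophil-low library reached the lowest of the 8 in any of these 3. The Src-family kinase Fgr followed as well (5.87, 8.7, 10.8 and 7.9 against 14 to 38.7, median 26 CPM, -1.69). Csf2rb, the shared signalling chain of the GM-CSF and IL-3 receptors, was at 5.79, 7.11, 10.9 and 8.01 against 18.1 to 43.5 (median 24.4) CPM (-1.87), although reads of its copy Csf2rb2 may be counted with it. Cebpa, a myeloid transcription factor that other pancreatic cells also express, did not follow, at 54.6, 53.4, 61.3 and 54.4 against 42.7 to 80.8 (median 57.6) CPM (-0.04).

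All 6 genes of the phagocyte NADPH oxidase separated the groups (2.91% of all tested genes did) and 5 followed the split (2.16%), with a median of -1.74. Cybb, its membrane-bound catalytic subunit, was at 7.75, 13.9, 12.7 and 14.8 CPM in the neutrophil-low libraries and at 15.6 to 117 (median 53.7) in the others (-2.26), with AMKO 4 close to AMKO 6 and AMKO 1 the highest. The GTPase Rac2 was at 5.22, 8.04, 9.09 and 7.69 against 13.6 to 52.5 (median 25.3) CPM (-2.05). Of the cytosolic subunits, Ncf1 was at 6.44, 13.1, 13.5 and 12 against 19.8 to 52.3 (median 32.2) CPM (-1.68), while Ncf4 differed by -1.79. The exception was Cyba, the partner subunit that many tissues express, at 22.1, 24.9, 26.2 and 14.7 against 29.2 to 43.9 (median 36.4) CPM (-0.73), which separated the groups at less than 2-fold. The 5 followed whichever of the 12 libraries was left out.

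Most chemokine genes did not follow the split one by one, but both chemokine lists were lower as a whole in the neutrophil-low libraries. Of the neutrophil-attracting chemokines, 3 of 5 were tested and all 3 were fitted at least 2-fold lower, against 5.5% of all tested genes. Summed over the list, the neutrophil-low libraries held 4.73 to 6.46 CPM and the others 8.905 to 34.8 (median 16.7), without overlap. Of the 3, Cxcl2 alone followed. Cxcl2 was at 1.96, 1.66, 1.95 and 2.38 CPM in the neutrophil-low libraries and at 4.07 to 23.6 (median 8.48) in the others (-2.25), lowest of the 8 in AMKO 4 and highest in WT 1. Cxcl1, whose promoter above carries the same kind of kB matches, was at 1.63, 2.79, 3.14 and 2.49 against 2.31 to 12.9 (median 5.85) CPM (-1.23), and AMKO 2 lay below WT 6, AMKO 3 and AMKO 6. Without AMKO 2 it followed. Cxcl5, a chemokine of epithelial cells, overlapped as well (1.14, 1.46, 1.36 and 0.325 against 1.27 to 6.72, median 2.69 CPM, -1.41). These genes had low counts in every library.

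The 18 other chemokines tested had a list median of -0.971, with 16 fitted below 0 and 9 at least 2-fold lower. Summed over the list, the neutrophil-low libraries held 285 to 472 CPM and the others 602.5 to 1211 (median 733), again without overlap. Of the 18, 2 followed, against 2.16% of all tested genes. These were Ccl3 and Ccl4, which neutrophils and macrophages make and which overlap each other in the annotation, so their counts are uncertain. Ccl3 was at 0.897, 0.465, 0.68 and 0.974 against 1.03 to 9.45 (median 2.33) CPM (-2.08) and Ccl4 at 1.14, 0.863, 0.51 and 0.866 against 1.27 to 9.06 (median 4.04) CPM (-2.43). The monocyte chemokines Ccl2 (26.5, 30.4, 17.2 and 8.88 against 22.8 to 103, median 36.4 CPM, -1.08) and Ccl7 (29.8, 33, 20.3 and 10.8 against 16.7 to 80.2, median 31.7 CPM, -0.67) overlapped between the groups. In Ccl2 the WT neutrophil-low libraries were within the range of the 8 and the AMKO ones below it. Ccl6 was at 66.5, 106, 178 and 173 against 156 to 340.5 (median 209.9) CPM (-0.86), with the AMKO neutrophil-low libraries above the lowest of the 8. Ccl9, made like it by myeloid cells, differed by -0.80 and did not follow.

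Among cytokines, 3 of 12 tested genes followed the split (2.16% of all tested genes did), all of the interleukin-1 family. Il1b, the proinflammatory cytokine released after inflammasome activation, was at 3.83, 4.85, 2.38 and 4.11 against 9.67 to 55.7 (median 19.3) CPM (-2.52). It overlaps an antisense gene, and the use of strand in the counting was not given in the sources used here. Il1f9, which encodes IL-36γ, was at 1.06, 2.06, 1.02 and 0.758 against 3.5 to 26.8 (median 8.14) CPM (-2.94). Both were highest in WT 1, and the lowest of the 8 was an AMKO library, AMKO 4 for Il1b and AMKO 2 for Il1f9. Il1rn, the receptor antagonist, was the member just inside the 2-fold condition (28.3, 27.8, 34.2 and 28 against 44.4 to 126, median 50.2 CPM), and 3 of the 4 other scalings tried put it just outside, as did leaving out WT 1, WT 3, WT 6 or AMKO 1. Il33, an alarmin of stromal and epithelial nuclei, separated the groups but was just outside (25.5, 23, 17.3 and 17.1 against 25.9 to 53.3, median 41.2 CPM, -0.97). Il33 followed without WT 3, WT 4 or AMKO 2. Il6 followed only without WT 6 (0.489, 0.797, 0.51 and 0.649 against 0.679 to 4.48, median 1.57 CPM, -1.66), and the macrophage growth factor Csf1 overlapped (48.8, 64.4, 31.4 and 22.5 against 30.7 to 65.2, median 44.4 CPM, -0.17).

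The receptors that followed the split are, except for Il1rap, known mainly from leukocytes. Of 19 cytokine and chemokine receptors tested, 7 followed (2.16% of all tested genes did) and the list median was -0.615. Il18rap, a chain of the interleukin-18 receptor, was at 2.2, 1.86, 3.31 and 1.08 against 6.25 to 22.4 (median 7.54) CPM (-2.13). Ccr1, a receptor for CCL3 and related chemokines, was at 18.4, 20.5, 23.3 and 23.2 against 39.6 to 85.5 (median 51.6) CPM (-1.38). Cxcr4, which retains neutrophils in the marrow, was at 2.53, 2.99, 2.8 and 1.95 against 4.41 to 17.2 (median 9.22) CPM (-1.96). Il1rap, the accessory chain of the interleukin-1 receptor, was at 10.4, 10.4, 5.1 and 6.17 against 12.4 to 34.8 (median 14.7) CPM (-1.13), and Il10ra followed by -1.29. Without WT 1, Il1rap no longer followed. Tnfrsf1a, the TNF receptor that most cells carry, was level at 128, 104, 119 and 118 against 104 to 122 (median 114) CPM (0.04), and Il6st, the signalling chain for interleukin-6, differed by -0.14.

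The same division was seen in innate sensing. Of 16 Toll-like receptors and adaptors, 5 followed the split (2.16% of all tested genes did), with a list median of -0.848. They were Tlr13, Tlr4, Tlr1, Tlr6 and the adaptor Ticam2. Tlr13, the endosomal sensor of bacterial ribosomal RNA, was at 13, 14.2, 9.77 and 13.9 against 26.7 to 58.7 (median 34.9) CPM (-1.59). Tlr4, the endotoxin receptor, was nearly constant among the 4 at 10.7, 10.4, 10.96 and 10.5 CPM and ranged from 15.3 to 34 (median 24) in the others (-1.12). Tlr1 and Tlr6, partners of TLR2, followed by -1.26 and -1.40, the second with counts uncertain because it overlaps another gene. Myd88, the adaptor used in many cell types, differed by -0.18 and overlapped. In the inflammasome and lytic death list, 4 of 11 followed. Nlrp3 was at 1.3, 1.13, 1.36 and 1.84 against 3.31 to 11.4 (median 5.32) CPM (-2.10) and Nlrc4, the sensor adaptor for flagellin, at 0.163, 0.266, 0.34 and 0.974 against 1.12 to 4.31 (median 1.65) CPM (-2.30). Casp1, the protease they activate, and the DNA sensor Aim2, which overlaps another gene, followed by -1.60 and -1.58. The necroptosis genes Mlkl (22.6, 20.5, 14 and 6.82 against 11.7 to 24.5, median 15.1 CPM, -0.11) and Ripk1 (-0.13) did not follow.

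Genes with which the vessel wall holds leukocytes gave a mixed account. Of 6 tested, 2 followed (2.16% of all tested genes did), with a median of -0.979. With upper quartile scaling or library totals alone, 1 of the 6 followed. Selplg, the P-selectin ligand that leukocytes themselves carry, was at 3.59, 7.44, 9.09 and 5.09 against 12.5 to 33.9 (median 22.3) CPM (-1.83), and Icam2 at 1.47, 1.86, 1.7 and 1.52 against 1.87 to 7.39 (median 3.83) CPM (-1.34). Selp, the P-selectin of endothelium and platelets, separated the groups at less than 2-fold (12.6, 12.2, 11.8 and 12.6 against 13.9 to 23.3, median 18.6 CPM, -0.58). Vcam1 (-0.97), Sele, the E-selectin (-0.99), and Icam1 (-0.67) overlapped, and Vcam1 followed without AMKO 4. Of 15 endothelial identity genes none followed, and their median was 0.0517, or -0.0744 with scaling to library totals alone. Pecam1, for example, was at 71.6, 65.7, 54 and 44.9 against 47 to 68.6 (median 54.8) CPM (0.05).

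The genes of the resident pancreas did not follow the split in any list, which is near the shares of all tested genes (2.16% downwards, 0.0211% upwards). None of 23 digestive enzyme genes followed, nor did any of 16 zymogen granule and acinar identity genes, 22 duct and metaplasia genes, 16 islet genes or 18 Reg and acute phase genes. Their medians were 0.254, 0.127, -0.0164, 0.887 and -0.0252, and 1, 3, 12, 1 and 9 members were fitted below 0, against 50.2% of all tested genes. The digestive enzyme, zymogen and identity, and islet lists thus lay mostly above 0 without separating the groups. With scaling to library totals alone, which moved the median of all genes to -0.125, the zymogen and identity median was -0.00162 and the duct median -0.154. In that scaling 3 digestive enzyme, 8 zymogen and identity and 1 islet gene were fitted below 0. With the 3 other scalings the duct median was 0.00161 to 0.00809. Cpa1, carboxypeptidase A1, was at 20536, 14988, 20898 and 25788 against 12693 to 20364 (median 17108) CPM (0.28), and Cela1, an elastase, at 45963, 30684, 45321 and 39000.0 against 29309.6 to 47637 (median 40152) CPM (0.03). AMKO 6 had the most Cpa1 and WT 6 fell inside the range of the 8 in both. Krt19, the duct keratin that acinar cells gain in metaplasia, was at 1086, 1177, 1365 and 1139 against 813 to 1224 (median 1039) CPM (0.19). Krt20 differed more between genotypes than over the split, at 706, 817, 256 and 129 against 102 to 948 (median 445) CPM (0.09).

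Of the Reg and acute phase genes, Saa3 had a large difference and still overlapped. It encodes a serum amyloid made in inflamed tissue, and was at 47.3, 87.9, 34.9 and 68.5 CPM in the neutrophil-low libraries and at 24.8 to 954 (median 469) in the others (-2.92). AMKO 4, at 24.8 CPM, lay under all 4, and without it Saa3 followed. Reg3b, a secreted lectin of injured acinar cells, varied widely in both groups (4131, 3152, 133 and 1566 against 197 to 5527, median 557 CPM). The islet list summed to 504 to 2228 CPM in the neutrophil-low libraries and to 160 to 1111 in the others (median 430), so the 4 lay above the median of the 8 but overlapped with them. Gcg, the glucagon gene, was at 60.2, 191, 314 and 1048 CPM there and at 19.5 to 205 (median 85.7) in the others (1.64), so that AMKO 6 and AMKO 3 alone lay above the 8. Ins2, the insulin gene, was at 213, 364, 532 and 507 against 62.8 to 454 (median 171) CPM (0.85).

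None of 14 genes of NF-kB and its feedback, which many cell types induce, followed the split. Of all tested genes 2.16% followed downwards, and the median of the 14 was -0.199. Rela, which encodes the p65 subunit, was at 207, 186, 294 and 255 against 174 to 261 (median 205) CPM (0.14) and Nfkb2 at 61.6, 78.8, 70.3 and 56.8 against 59.6 to 81.5 (median 68.5) CPM (-0.06). All 21 fibroblast and matrix genes tested were fitted below 0, against 50.2% of all tested genes, with a median of -0.315. So were 14 of 15 matrix proteases and their inhibitors, with a median of -0.365 and none that followed. Of the 21, 1 followed, Fn1, the fibronectin gene that macrophages also express, at 100.6, 178, 244 and 163 against 277 to 819 (median 511) CPM (-1.59). Col3a1, a fibrillar collagen of fibroblasts, was at 257, 317, 170.3 and 169 against 178 to 510.2 (median 323) CPM (-0.58). Among 16 hypoxia and glycolysis genes 1 followed, Egln3, an oxygen-sensing hydroxylase, at 0.652, 0.996, 0.935 and 0.325 against 1.35 to 4.77 (median 2.53) CPM (-1.85). Widely expressed reference genes had a median of 0.0248 over 14 members, or -0.101 with scaling to library totals alone, and Eef1a1, whose many pseudogenes make its counts uncertain, was at 9759, 9179, 10973 and 10242 against 8485 to 11085 (median 9524) CPM.

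Interferon-stimulated genes were lower in fit without separating the groups over both genotypes together. All 31 tested were fitted below 0 (50.2% of all tested genes were), their median was -0.832 and 13 were at least 2-fold lower (5.5%), yet none followed (2.16%). Overlap was judged over both genotypes together, and 19 of the 31 were called lower in AMKO. In WT, the mean centred log2 CPM of the list was 0.294 and -0.0369 in the neutrophil-low libraries against 0.503 to 1.35. In AMKO it was -1.087 and -1.17 against -1.086 to 0.405. The list's mean thus lay apart within each genotype, by little in AMKO. Rsad2, an antiviral enzyme, was at 282, 94, 26.5 and 25.1 against 32.8 to 425 (median 62.7) CPM (-0.34), with WT 3 above most of the 8 and both AMKO libraries below all of them. Stat2, a factor that carries the interferon signal and overlaps another gene, was at 97, 84.3, 38 and 31.4 against 34.1 to 116 (median 61.7) CPM (-0.14).

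Described as poor in leukocytes, the 4 libraries were low in phagocyte genes, and markers of other leukocyte classes were mostly fitted lower without separating the groups. Of those tested, 10 of 10 B and plasma cell markers and 6 of 9 mast cell and eosinophil markers were at least 2-fold lower. So were 6 of 8 dendritic cell and class II genes and 2 of 3 T and NK cell markers, against 5.5% of all tested genes. B and plasma cell markers had the most negative median of the 44 lists, -3.47 over 10 tested of 16 listed, but 1 followed (2.16% of all tested genes did). The 4 constant-region genes Ighm, Ighd, Igkc and Iglc2 were at 0 in all 12 libraries. Summed over the whole list, the B and plasma cell markers stood at 1.06 to 13.3 CPM in the neutrophil-low libraries and 3.22 to 271 (median 42.8) in the others. Cd79a, a chain of the B cell receptor, was at 0.0815, 2.26, 1.02 and 0.758 against 0.339 to 35.9 (median 3.79) CPM, and Jchain, the joining chain of secreted antibodies, at 0.408, 4.32, 0.17 and 0.541 against 0.318 to 55.7 (median 18.4) CPM. AMKO 4 was lower than most of the neutrophil-low libraries in Cd79a, and 3 members, Pax5 and Cxcr5 among them, followed without it. Without WT 6 the list median was -4.86 and 3 members followed, and without AMKO 1 it was -2.77. Cxcr5, the receptor that brings B cells into follicles, was the 1 that followed with all libraries (0.0815, 0.332, 0.17 and 0.108 against 0.424 to 7.51, median 1.48 CPM), at few counts and overlapping another gene.

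Of 26 T and NK cell markers the T cell receptor genes Trac, Trbc1 and Trbc2 were at 0 in every library. Only 3 had enough counts to be tested and none followed, with a median of -1.66 and 5.63 to 11.8 CPM summed over the list against 5.18 to 42.4. The 3 were Il7r, Il2rb and Thy1. Il7r, the interleukin-7 receptor of lymphocytes, was at 0.734, 0.797, 1.36 and 0.433 against 0.509 to 6.1 (median 2.79) CPM (-1.83). It followed without AMKO 4, as did Il2rb. Of 17 dendritic cell and class II genes 8 were tested and none followed (median -1.23, 59.0 to 106 CPM summed against 89.9 to 328, median 111). Cd74, the chaperone of class II molecules, was at 17, 31.8, 51.7 and 40.7 against 38.7 to 234 (median 60.2) CPM (-1.27), and without AMKO 4 it followed. None of 9 mast cell and eosinophil genes followed (median -1.96, 28.1 to 37.7 CPM summed against 23.0 to 68.4, median 43.9). Cpa3, the mast cell carboxypeptidase, was at 0.245, 1.26, 0.085 and 1.41 against 0.339 to 7.7 (median 2.39) CPM. No member of the mast cell list followed in any fit without 1 library. At the 2.16% of all tested genes that followed downwards, lists as short as these mostly hold none.

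Markers of other tissue also differed between libraries. The 13 adipocyte genes had a median of -2.72, or -3.73 without WT 6, with none that followed, and summed to 151 to 209 CPM in the neutrophil-low libraries and 135 to 838 (median 243) in the others. Fabp4, the fatty acid carrier of adipocytes and vessels, was at 90.5, 88.1, 64.8 and 53.5 against 69.7 to 258 (median 111) CPM (-0.85). The 7 mesothelial genes had a median of -0.958, and Msln was at 1.55, 3.39, 5.61 and 6.28 against 2.8 to 10.6 (median 6.78) CPM (-0.81). For red cell and platelet genes the median was 1.22 over 5 tested, and WT 3 stood apart. Its Hbb-bs level was 186 CPM, against 6.54 to 11 in the other 3 and 5.01 to 28.7 (median 14.1) in the 8, and without WT 3 the list median was -0.443. The part of adipose, lymphoid, mesothelial or blood tissue in the differences of phagocyte genes was not tested.

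**Figure D4:**
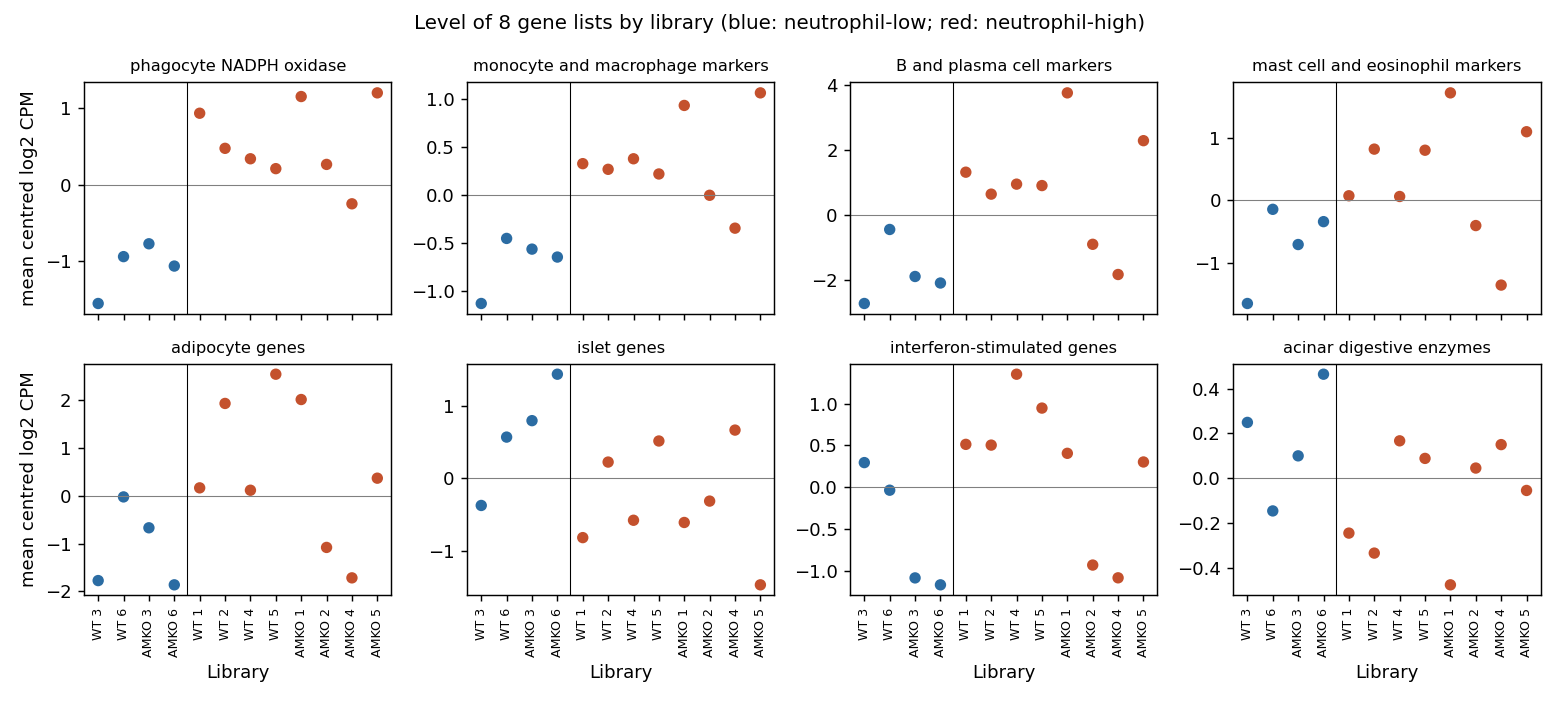
Mean over the members of a list of log2 CPM centred on the 12 libraries (y axis), 1 panel for each of 8 lists and 1 point per library, with the neutrophil-low libraries in blue left of the line and the neutrophil-high ones in red. The NADPH oxidase and macrophage panels leave a gap between blue and red, and in the other 6 the colours overlap, with AMKO 4 low for B cell, mast cell and adipocyte genes.

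The split was also described within each genotype. In WT alone, with 2 against 4 libraries, 711 genes followed downwards, and in AMKO alone 586. Of the 307 genes, 286 followed in WT alone and 288 in AMKO alone, where their choice fixes that the groups lie apart and the fold alone could fail. With only 2 libraries on one side, non-overlap is met more easily, so the larger counts do not measure a larger difference. Whether a gene differed between the groups by another amount in AMKO than in WT was tested as an interaction of genotype and split. By edgeR's quasi-likelihood test no gene passed at a Benjamini-Hochberg adjusted p under 0.05 (0 of 14212, 0%, smallest adjusted p = 0.718). At an unadjusted p under 0.05 there were 607 (4.27%), 1 of them among the 307. A gene whose groups overlapped in either genotype could not be among the 307, so this count is partly set by their choice. DESeq2 called 5 genes, Ceacam1, Kdr, Penk, C7 and the Y-linked Kdm5d, named after their values were seen, and limma voom called 0. Sex and genotype coincide in the neutrophil-low libraries and not in the others. The WT neutrophil-low libraries were male and most WT neutrophil-high ones female, with the reverse in AMKO. Sex thus goes largely with the split within each genotype, in opposite directions, and nearly with the interaction. In WT alone or AMKO alone the 2 can hardly be told apart. With sex as a further term the interaction test by edgeR called 0 genes.

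Because genotype was balanced over the split, AMKO could be compared with WT with the split as a term, in a fit of all 12 libraries. By edgeR's quasi-likelihood test 1052 genes passed at an adjusted p under 0.05 (7.4%), 453 higher in AMKO (3.19%) and 599 lower (4.21%). With scaling to library totals alone, 217 were higher and 444 lower. Of the 307 genes that followed the split downwards, 6 passed (1.95%), and of the 13902 that did not follow it, 7.52%. To follow, the neutrophil-low libraries of both genotypes had to lie below the neutrophil-high ones of both. A gene with a large genotype difference could seldom meet this, so the lower share is partly set by the choice of genes and is not read as a result. The median genotype difference of the 307 was 0.117 (AMKO minus WT, log2), with 112 fitted below 0, against -0.00269 for all tested genes. Genes picked because their libraries sort by the split have had part of their spread taken out by it, so the p-values of these 6 are too small by an unknown amount and support nothing on their own.

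Of those 6, 3 were higher and 3 lower in AMKO, and S100a8 and S100a9 are genes by which the libraries were sorted. In the list of other neutrophil genes 1 of 22 passed, lower in AMKO, which is near the 4.21% of all tested genes. F13a1 was at 79.5 ± 35.5 CPM in WT and 124 ± 55.3 in AMKO (SD, n = 6 libraries each), a difference of 0.64 (SE 0.18, edgeR adjusted p = 0.0408). Lyz2 was at 250 ± 121 and 422 ± 250 CPM (0.75, SE 0.21, edgeR adjusted p = 0.0487). Chil3 was at 92.2 ± 46.8 and 130 ± 58.0 CPM (0.54, SE 0.16, edgeR adjusted p = 0.0496). With each library left out in turn, these 3 kept the call in 4, 2 and 3 of 12 fits. S100a9 was at 91.0 ± 63.5 and 45.5 ± 27.4 CPM (-0.95, SE 0.20, edgeR adjusted p = 0.0108) and kept its call in all 12. S100a8 was at 49.6 ± 37.0 and 25.7 ± 16.2 CPM (-0.82, SE 0.21, edgeR adjusted p = 0.0315), and Il1rap at 17.4 ± 9.06 and 10.9 ± 4.18 CPM (-0.70, SE 0.19, edgeR adjusted p = 0.0353), with the call kept in 7 and 5 of 12. Every such fit kept the sorting, which had used S100a8 and S100a9, so a kept call adds nothing in favour of a gene. In a fit without the split, 0 of the genes that followed it were called. Cxcl2 did not pass (-0.62, edgeR adjusted p = 0.29), nor did Il1b (-0.85, edgeR adjusted p = 0.092).

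**Figure D5:**
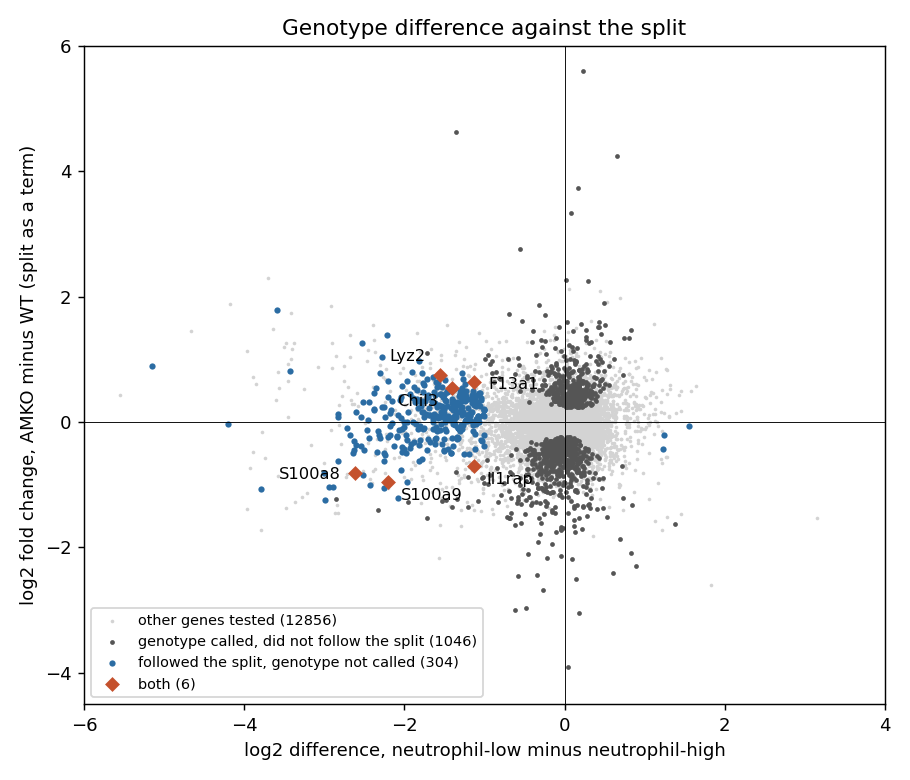
Each tested gene as a point, with its log2 difference between neutrophil-low and neutrophil-high libraries on the x axis and its log2 fold change between AMKO and WT, with the split as a term, on the y axis; 1 of 14212 genes lies outside the axes. Blue points followed the split, dark grey points passed the genotype test without following it, and the 6 red diamonds did both.

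Most genes that carried the genotype difference did not follow the split, as was the case for 13902 of all 14212 tested genes. Interferon-stimulated genes had 19 of 31 members lower in AMKO and none higher, against 4.21% and 3.19% of all tested genes. Rsad2 differed by -2.44 between genotypes (SE 0.39, edgeR adjusted p = 0.00218). Of 12 integrated stress response genes 8 were higher in AMKO, and of 18 immediate early and injury genes 6, against the same 3.19%. Krt20 differed by -2.18 (SE 0.19, edgeR adjusted p = 1.81e-05), and Ptf1a, the acinar transcription factor, by 1.18 (SE 0.25, edgeR adjusted p = 0.0128), with 0.09 and 0.15 over the split. Ptf1a overlaps an antisense gene. Several inflammatory genes of the lists above belonged here too. Ccl2 (-1.25, edgeR adjusted p = 0.002), Ccl7 (-1.22, edgeR adjusted p = 0.0042) and Csf1 (-0.89, edgeR adjusted p = 0.00043) were lower in AMKO, as were Cxcl5 (-1.36, edgeR adjusted p = 0.016) and Mlkl (-0.91, edgeR adjusted p = 0.002). Ccl6 (0.80, edgeR adjusted p = 0.0021), Ccl9 (0.69, edgeR adjusted p = 0.0016), Mrc1 (0.82, edgeR adjusted p = 0.0074) and Sele (1.01, edgeR adjusted p = 0.047) were higher, and the call for Sele was kept in 3 of 12 fits with a library left out. With sex as a further term, 1045 genes passed. Within the neutrophil-low libraries genotype and sex coincided.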

How the data were processed

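RNA-seq counts of 12 pancreas libraries were used. The deposited table holds raw counts per gene, as whole numbers, for 46095 genes, of which 19888 had 0 counts in every library and 14212 passed edgeR's filterByExpr with the split as the group and were tested. Reads were aligned with HISAT2 2.0.4 to mm10, per the submitters' processing notes. The read counter, annotation and use of strand were not given in the sources used here. Totals of 10668637 to 15184371 counts limit what can be seen in genes of a few counts.

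The neutrophil-low libraries are those the rule names, and all groups by genotype come from the titles. The members and the gene lists were chosen with earlier results of these data known. Counts were fitted in edgeR 4.0.16 (R 4.3.3) after TMM scaling with terms for split and genotype. The split coefficient is reported as a description, with no test. Levels are CPM from TMM-scaled library sizes, and overlap was judged on log2 CPM with a prior count of 2. Genotype and its interaction with the split were tested by the quasi-likelihood F test with Benjamini-Hochberg adjustment over the 14212 genes, and called at an adjusted p under 0.05. The procedure was tested on simulated counts of 14030 genes that entered the fit. The genes to be changed were drawn from those with a mean of at least 2 CPM, so the shares found do not cover weaker genes. There 100 of 100 genes made 4-fold different followed the split and 4 of 13930 unchanged ones did, and for genotype 85 of 100 genes changed 2-fold and 100 of 100 changed 4-fold were called, with 14 false calls among 13830. In the simulation the split was fixed beforehand and genes varied independently, while here the libraries were sorted by measured genes. The 4 are therefore no chance rate for the genes that followed the split in the data.

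Libraries of a genotype differed beyond the noise of sampling (chi-square over degrees of freedom 9.93 to 73.33), so none was counted as a repeat. Genes named in the text are the 4 that defined the split, Axl and Mertk, the 15 largest differences in each direction among genes that followed it with a log2 CPM averaging at least 1, up to 6 followers and 3 others of each list, up to 5 genes called in each direction of a test and a fixed set of inflammatory and pancreatic genes. From these, the text gives those that carry each group, and others are named as chosen after their values were seen. Some genes that the rule takes are left out of the text and counted in their lists alone. Near-identical copies are transcripts of another gene with 95% identity over at least 300 bases (BLAST 2.17.0). Promoters and start sites are RefSeq's on GRCm38.p6, the assembly that mm10 names. Alternatives were other scalings, filters and fold conditions, each library left out, each genotype, numbers 1 to 3 or numbers 4 to 6 alone, sex as a term, the replicate number as a block, DESeq2 1.42.0 and limma 3.58.1.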

Additional observations from a re-analysis of the deposited data

Results flagged for a closer look

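In 126 genes named in the text or by its rule, the 4 neutrophil-low and the 8 neutrophil-high libraries were searched apart for 1 library whose gap to the nearest other exceeded Dixon's 95% critical value. Of 252 groups 13 had one, and chance gives about 1 in 20, or 12.6. All values here are CPM.

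Among the neutrophil-low libraries WT 3 stood apart in 4 genes. Itgam was at 48.6 against 64.8 to 67.5 in the other 3, Ncf1 at 6.44 against 12.0 to 13.5, and Alb, the liver gene of plasma albumin, at 0.571 against 14.7 to 18.7. Low Alb was shared with WT 1 and WT 2, with 2 and 7 counts against 7 in WT 3 and 141 to 309 in the other 9 libraries. Hbb-bs, a haemoglobin gene, was at 186 there against 6.54 to 11. WT 6 was high for Cxcr2 (8.43 against 6.28 to 6.36), 1 of the genes that defined the split, and for the NF-kB inhibitor Tnip1 (122 against 72.7 to 77.9). AMKO 3 was high for Cebpa (61.3 against 53.4 to 54.6) and Il1rn (34.2 against 27.8 to 28.3), and AMKO 6 was low for Fam65b (2.71 against 3.18 to 3.25).

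Among the neutrophil-high libraries WT 1 was high for 3 genes of interleukin-1 and interleukin-18 signalling. Il1rn was at 126 against 44.4 to 62.3 in the other 7, Il1rap at 34.8 against 12.4 to 18.4 and Il18rap at 22.4 against 6.25 to 9.53. AMKO 1 was high for Prtn3, a protease of immature neutrophil granules (5.60 against 0.556 to 1.65).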

How the results depend on the processing

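No gene named in the text changed the sign of a called value under any alternative. The 307 genes lower and 3 higher in the neutrophil-low libraries became 282 (without AMKO 1) to 414 (without AMKO 4) and 3 to 14 (without WT 3) when 1 library was left out. In WT alone they were 711 and 85, in AMKO alone 586 and 106, with numbers 1 to 3 alone 738 and 51, and with numbers 4 to 6 alone 85 were higher. Of the 307, 300 followed with numbers 1 to 3 and 257 with numbers 4 to 6, where their choice left only the fold to fail. A 4-fold condition left 74 and 0, and dropping the condition on overlap gave 781 and 61. Without a count filter 12 were higher, 43 genes called for genotype were among the followers and 44 were called in the interaction.

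The 1052 genes called for genotype (453 higher in AMKO, 599 lower, 6 among the followers) became 661 with library totals only (217 higher, 1 among the followers) and 1635 with DESeq2 (846 higher, 17 among the followers, and 5 in the interaction). The 8 neutrophil-high libraries alone gave 98 (36 higher, 62 lower, 0 among the followers), the 4 neutrophil-low libraries alone 395 (138 higher, 257 lower, 1 among the followers), and a fit without the split had 0 among the followers. Leaving out 1 library gave 533 to 1416 calls, 209 to 750 higher, 324 to 666 lower and 1 to 20 among the followers. The calls fell to 655 without WT 3, 588 without WT 6, 625 without AMKO 2 and 533 without AMKO 3. There were 20 among the followers without AMKO 4. Fewer libraries test less, and the cause of the other changes was not tested. With the replicate number as a block, which contains the split, 883 genes were called, 390 higher and 493 lower, 7 among the followers. Libraries that share a number did not all deviate together (r = -0.151 to 0.333 for the 6 numbers), so the numbers are not taken as pairs. For genes of a few counts, such as Nlrc4, Cxcr5 and Wfdc21, depth limits what non-overlap can show.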

Other observations

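At the 2.16% of all tested genes that followed downwards, lists of 8 to 18 genes mostly hold none. The lists of housekeeping and stress genes held none that followed the split. This was the case for all 12 ER chaperone genes tested (median difference -0.0398), 8 cytosolic heat shock genes (-0.114), 18 immediate early and injury genes (-0.174), 12 integrated stress response genes (0.2), 14 clock genes (0.094, or -0.0463 with library totals only), 12 genes of cholesterol synthesis (-0.0704), 10 glucocorticoid response genes (0.208) and 11 mitochondrially encoded genes (-0.103). Hspa5, the main chaperone of the endoplasmic reticulum, was at 2614, 1353, 1751 and 1500.2 CPM in the neutrophil-low libraries and at 1204 to 2411 (median 1587) in the others. Atf4, a transcription factor of the integrated stress response, was at 245, 163, 325 and 391 and 197 to 343 (median 229) CPM, where AMKO 6 was the highest of all 12. Clock was at 47, 37.8, 42.9 and 46.7 and 42.5 to 59.4 (median 51.1) CPM.

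Among minor cell types, none of 6 smooth muscle and pericyte genes (median -0.361), 3 Schwann cell genes (-0.0184, or 0.00754 with upper quartile scaling) or 9 liver genes (0.0161, or -0.0587 with library totals only) followed. Lists this short mostly hold none at the share of all tested genes. In the liver and Schwann cell lists WT 1, WT 2 and WT 3 stood apart. Their mean centred log2 CPM was -2.22, -1.47 and -2.03 for liver genes, against 0.2015 to 0.994 in the other libraries. For Schwann cell genes it was -1.64, -1.08 and -0.871 against 0.213 to 0.642. These are all WT libraries, and their part in the genotype calls was not tested.

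Proliferation and clearance genes gave the same count, which again is what lists this short mostly hold. None of 16 cell cycle genes followed the split (median -0.135), and none of 11 genes of the TAM receptors and of the uptake of dying cells did (-0.24). Axl was lower in the neutrophil-low than in the neutrophil-high libraries of WT (44.4 and 46.5 CPM against 57.7 to 76.9), while in AMKO the 2 ranges overlapped (8.34 and 10.5 against 5.6 to 11.5). This difference between genotypes was not called in the interaction test.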
